A study of Mus musculus with 6 samples.

Results

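The genes described here are 10 genes of the pericellular matrix, namely Fn1, Sparc, the thrombospondins Thbs1, Thbs2 and Thbs3, the CCN genes Cyr61 and Ctgf, Tnc, and the fasciclin genes Postn and Tgfbi. They were taken by symbol from a table of 36870 distinct symbols, and all 10 were found. Cyr61 and Ctgf are the older names of Ccn1 and Ccn2. RNA-seq had been performed on bone marrow mesenchymal stem cells (BMMSCs), the adherent cells grown out of flushed C57BL/6 mouse marrow, in 3 control samples and in 3 samples given siRNAs against both Tet1 and Tet2 (siTet1/Tet2). Tet1 and Tet2 encode dioxygenases that oxidize 5-methylcytosine in DNA, and the comparison asks what BMMSCs transcribe when both are depleted. The labels and the siRNA methods give a non-targeting siRNA for the control, which the RNA-seq methods call vehicle, and the labels give passage 2, the methods an earlier passage. Neither the age nor the sex of the mice is given in the labels, nor whether replicates came from separate animals or cultures, so the p-values measure only the spread between these libraries, which may be technical. Values are RPKM, which scale the reads on a gene to its length and to the depth of the library, so that levels of different genes can be compared.

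Fibronectin, encoded by Fn1, is a secreted glycoprotein that cells assemble into fibrils through integrins, and other matrix proteins are laid down on these fibrils. Matricellular proteins are secreted into the matrix but bear little mechanical load themselves. They bind collagens, growth factors and cell surface receptors and adjust how cells attach, migrate and respond to growth factors, and in bone marrow the stromal and osteoblast lineage cells are known sources of them. Cyr61 and Ctgf are in addition textbook target genes of the YAP and TEAD transcription regulators, and Ctgf, Postn and Tgfbi are known to be induced by TGF-beta.

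Promoter windows of 4 of the genes are printed because these genes cover the extremes of the response, with Postn and Thbs2 the most reduced of the 10 genes, Tgfbi the gene whose groups overlapped, and Cyr61 a TEAD target. The windows are from RefSeq (GRCm38.p6) and end just before the annotated start of transcription. They were at chr3:145649986-145650235 on the minus strand for Cyr61, chr3:54360857-54361106 on the plus strand for Postn, chr17:14694263-14694512 on the minus strand for Thbs2 and chr13:56609336-56609522 on the plus strand for Tgfbi, where the window stops at the first base of the gene in GENCODE M21. Each sequence reads 5′ to 3′ along the gene's strand, and capitals mark matches to the motifs searched.
Cyr61: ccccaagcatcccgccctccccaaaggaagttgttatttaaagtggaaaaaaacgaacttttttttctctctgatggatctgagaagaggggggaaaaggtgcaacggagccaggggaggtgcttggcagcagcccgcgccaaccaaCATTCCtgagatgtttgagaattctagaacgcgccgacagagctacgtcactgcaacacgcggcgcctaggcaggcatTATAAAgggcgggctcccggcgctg
Postn: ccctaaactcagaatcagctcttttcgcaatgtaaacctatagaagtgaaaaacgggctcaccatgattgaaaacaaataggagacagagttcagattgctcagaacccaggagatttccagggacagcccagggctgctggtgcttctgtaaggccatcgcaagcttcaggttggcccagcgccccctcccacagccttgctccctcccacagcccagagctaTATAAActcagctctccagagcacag
Thbs2: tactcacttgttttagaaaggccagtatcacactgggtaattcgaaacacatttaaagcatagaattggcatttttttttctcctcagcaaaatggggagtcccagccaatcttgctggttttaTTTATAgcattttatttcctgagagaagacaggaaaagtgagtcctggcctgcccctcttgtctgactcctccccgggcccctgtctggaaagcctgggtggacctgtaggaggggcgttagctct
Tgfbi: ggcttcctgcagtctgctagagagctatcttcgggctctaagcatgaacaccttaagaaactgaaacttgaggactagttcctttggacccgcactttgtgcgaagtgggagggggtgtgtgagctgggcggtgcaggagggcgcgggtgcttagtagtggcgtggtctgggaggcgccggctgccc
The motifs searched on both strands were the TEAD core (GGAATG or CATTCC), the TATA box (TATAAA or TTTATA), the AP-1 site (TGANTCA) and the CArG box, which did not overlap in these windows. Windows of 250 bases were found for 7 of the 10 genes, 9 windows in all, and none was matched for Thbs1, Fn1 or Ctgf. Cyr61 was the only matched gene with a TEAD core, 103 bases before its start, and it had a TATA box 25 bases before its start. The TEAD core is present in 12.6% and the TATA box in 12.4% of the 32851 mouse promoter windows of that length. Postn had a TATA box 26 bases before its start in the printed window. Thbs2 had a match on the opposite strand 126 bases before its start. In its overlapping windows Tnc had a match on its own strand, at 126 and at 205 bases before the start. An AP-1 site or a CArG box was present in none of the 9 windows, against 6.75% and 1.47% of all windows. CpG pairs, the sites at which Tet enzymes act, numbered 15 in the Cyr61 and 15 in the full Tgfbi window, 8 and 10 in the windows of Tnc, 6 in Thbs3, 4 in Sparc, 3 and 4 in those of Postn and 3 in Thbs2. The median over all windows was 6, with quartiles of 2 and 16. A match gives only the letters in the window, and no binding or methylation was measured in these libraries.

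The depletion of Tet2 was visible in every siTet1/Tet2 library. Tet2 stood at 2.57, 4.08 and 3.71 RPKM in the controls and at 0.358, 0.238 and 0.202 RPKM in the siTet1/Tet2 libraries (limma adjusted p = 2.88e-05). Tet1 was listed at 0.032, 0.098 and 0.05 RPKM in the controls and at 0.001, 0.01 and 0.001 RPKM after siTet1/Tet2, the first and last at the lowest value the table lists, and its mean was too low to be tested. The table gives no read totals, and the depth estimated from its low values was between 32400000 and 38600000 reads per library. Libraries of the same group correlated with r from 0.992 to 0.997 across genes and libraries of different groups with r from 0.949 to 0.969.

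The matrix genes, all but Thbs3 at 24.8 RPKM or more in every control library, fell after siTet1/Tet2 with Tgfbi as the single exception. Of the 10 genes, 9 were lower and 0 were higher at an adjusted p under 0.05, whereas 29.8% of the 13266 genes tested were lower and 14.7% were higher by the same test (limma on log2(RPKM + 1), Benjamini-Hochberg adjustment over all genes tested). The same 9 genes had all 3 siTet1/Tet2 libraries below all 3 controls, which was the case for 35.9% of the genes tested, and no gene had them all above the controls, against 19.8%. The paper's rule for altered genes joins a p with a fold change and does not say whether the p was adjusted. When a fold change over 2 on the log2(RPKM + 1) scale was required together with an unadjusted p under 0.05, 8 of the 10 were lower, against 5.63% of the genes tested, and 0 were higher, against 0.95%. When the fold change was taken between group means of RPKM without a pseudocount, 9 of the 10 were lower, against 11.8% of the genes tested, and 0 were higher, against 2.71%. The median log2 fold change of the 10 genes was -1.97, and that of all genes tested was -0.09. All 10 genes passed the minimum mean of 0.1 RPKM. The pseudocount of 1 shrinks the fold change of weakly transcribed genes.

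**Figure D1:**
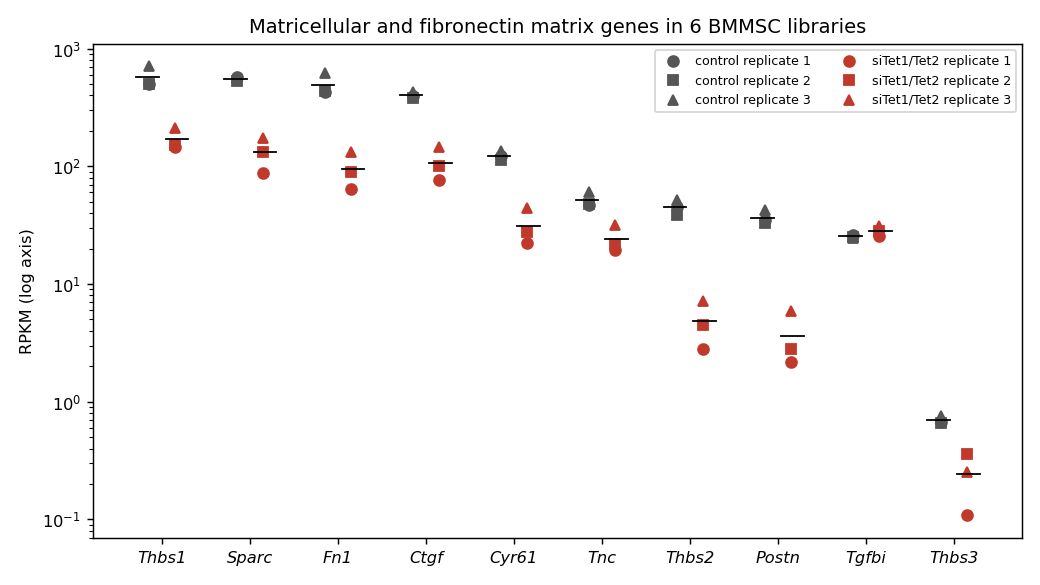
RPKM (log axis) of the 10 genes in each library, ordered by control mean, with control libraries in grey, siTet1/Tet2 libraries in red, a marker shape per replicate number and a black bar at each group mean. The red points lie below the grey points in 9 genes, and in Tgfbi the groups overlap.

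Fn1, on chromosome 1 of GRCm38 (chr1:71585520-71653200, minus strand), had 428, 433 and 615 RPKM in the controls and 64.6, 89.6 and 131 RPKM after siTet1/Tet2. The highest siTet1/Tet2 library stayed far below the lowest control. The mean fell from 492 ± 106 to 95.2 ± 33.7 RPKM (SD, n = 3 each), 5.17-fold lower, with a log2 fold change of -2.40 (SE 0.24, limma adjusted p = 0.000128).

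Sparc, which encodes osteonectin, a collagen-binding glycoprotein abundant in bone matrix, lies on chromosome 11 (chr11:55394500-55423183, minus strand). It had the most even control values of the strongly transcribed genes, 569, 533 and 569 RPKM, and stood at 87.2, 131 and 175 RPKM after siTet1/Tet2. The reduction from 557 ± 20.9 to 131 ± 43.9 RPKM (SD, n = 3 each) was 4.25-fold, with a log2 fold change of -2.13 (SE 0.21, limma adjusted p = 0.000112). The coefficient of variation was 3.75% among the controls and 33.4% among the siTet1/Tet2 libraries.

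The 3 thrombospondins differed in level, and Thbs2 had the largest fold change of them. Thbs1, whose product is a trimer that binds CD36 and CD47 and can activate latent TGF-beta, lies on chromosome 2 (chr2:118111876-118127133, plus strand). It had the highest mean RPKM of the 10 genes in both groups, although it was above Sparc in only 1 of 3 controls. Its values were 499, 504 and 706 RPKM in the controls and 145, 152 and 210 RPKM after siTet1/Tet2, a 3.37-fold lower mean and a log2 fold change of -1.75 (SE 0.17, limma adjusted p = 0.000115). The groups were well apart, and control 3 was the highest of its group as it was for Fn1.

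Thbs2 encodes a trimer of the same subgroup, known for limiting angiogenesis and for a role in collagen fibril assembly, and lies on chromosome 17 (chr17:14665500-14694235, minus strand). It was at 44.9, 38.5 and 51.3 RPKM in the controls and at 2.78, 4.48 and 7.18 RPKM after siTet1/Tet2. The mean was 9.33-fold lower, and the log2 fold change was -3.04 (SE 0.25, limma adjusted p = 4.38e-05). Only 41 of the 13266 genes tested, or 0.309%, had a log2 fold change at or below that of Thbs2.

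Thbs3 encodes a pentameric thrombospondin and lies on chromosome 3 (chr3:89215180-89226837, plus strand). It was by far the least abundant of the 10 genes, with 0.677, 0.657 and 0.753 RPKM in the controls and 0.108, 0.361 and 0.254 RPKM after siTet1/Tet2. These values stand for an estimated 103, 87 and 98 reads in the controls and 17, 56 and 36 reads after siTet1/Tet2. The groups did not overlap, and the mean RPKM was 2.89-fold lower. The log2 fold change with a pseudocount of 1 was only -0.46 (SE 0.09, limma adjusted p = 0.00324), under the threshold of 2-fold on that scale, while the ratio of the mean RPKM exceeded it. With pseudocounts of 0.1 and 0.01 the log2 fold change of Thbs3 was -1.30 and -1.64. Thbs3 shares 318 exon bases with Mtx1, a protein-coding gene on the opposite strand, and since the use of strand is not given in the sources used here, reads from the pair cannot be told apart.

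The fold change of Thbs2 exceeded that of Thbs1. The RPKM of Thbs1 was 11.1, 13.1 and 13.7 times that of Thbs2 in the controls and 52.3, 33.9 and 29.2 times that of Thbs2 after siTet1/Tet2, so the ratios of the groups did not overlap. The log2 fold changes differed by 1.30 (SE 0.20, two-sided exact permutation test over the 6 libraries, p = 0.1, Benjamini-Hochberg adjusted p = 0.117 over the 7 pairs compared, as for each pair with a p of 0.1). A p of 0.1 is the smallest that 3 libraries against 3 can give, so no pair could pass a threshold of 0.05. Thbs2 was 66.3, 58.6 and 68.2 times as abundant as Thbs3 in the controls and 25.8, 12.4 and 28.3 times after siTet1/Tet2, again without overlap, and the log2 fold changes differed by -2.59 (SE 0.30, exact permutation p = 0.1), but by -1.99 with a pseudocount of 0.1 and by -1.68 with 0.01. For Thbs1 and Thbs3 the log2 fold changes differed by -1.29 (SE 0.22, exact permutation p = 0.1), but the ratios of their RPKM were 737, 767 and 937 in the controls and 1346, 420 and 827 after siTet1/Tet2 and overlapped, and with a pseudocount of 0.1 the difference was -0.46.

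The CCN genes encode cysteine-rich secreted proteins that bind integrins and heparan sulfate. Ctgf, on chromosome 10 (chr10:24595442-24598683, plus strand), was at 398, 377 and 425 RPKM in the controls and at 75.8, 99.9 and 144 RPKM after siTet1/Tet2. The groups did not overlap, the mean was 3.75-fold lower and the log2 fold change was -1.94 (SE 0.20, limma adjusted p = 0.000128). Cyr61, on chromosome 3 (chr3:145646976-145649981, minus strand), was at 122, 113 and 134 RPKM in the controls and at 22.3, 27.5 and 43.8 RPKM after siTet1/Tet2, a 3.94-fold lower mean and a log2 fold change of -2.00 (SE 0.21, limma adjusted p = 0.000143).

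Both CCN genes had the same order of siTet1/Tet2 libraries and nearly the same fold change. The ratio of Cyr61 to Ctgf was 0.307, 0.300 and 0.315 in the controls and 0.294, 0.275 and 0.303 after siTet1/Tet2, and the groups overlapped. The difference of the log2 fold changes was -0.05 (SE 0.04, two-sided exact permutation test, p = 0.4, also 0.4 after adjustment over the 7 pairs).

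Tnc encodes tenascin C, a large hexameric glycoprotein of developing and healing connective tissue, and lies on chromosome 4 (chr4:63959785-64047015, minus strand). It was at 46.7, 48.0 and 60.1 RPKM in the controls and at 19.4, 21.9 and 31.5 RPKM after siTet1/Tet2. The groups did not overlap, but the reduction was modest beside that of the other abundant genes, 2.13-fold, with a log2 fold change of -1.08 (SE 0.17, limma adjusted p = 0.00127). Its fold change is close to the threshold of 2, and without control 3 or without siTet1/Tet2 1 the number of the 10 genes past the thresholds of the paper was 7. That number was also 7 by median ratio scaling and by quantile normalization, where the log2 fold change of Tnc was -0.96 and -0.97.

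Postn encodes periostin, a fasciclin-domain protein of periosteum and other collagen-rich tissue, and lies on chromosome 3 (chr3:54361109-54391037, plus strand). It was at 34.7, 32.8 and 42.1 RPKM in the controls and at 2.16, 2.78 and 5.87 RPKM after siTet1/Tet2, and the groups were separated by a wide gap. Its mean was 10.1-fold lower and its log2 fold change of -3.10 (SE 0.26, limma adjusted p = 4.7e-05) was the lowest of the 10 genes, reached by 38 of the 13266 genes tested, or 0.286%.

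Tgfbi encodes the other fasciclin-domain protein of the set, a TGF-beta-induced protein that links collagens to integrins, and lies on chromosome 13 (chr13:56609523-56639562, plus strand). It was at 26.2, 25.2 and 24.8 RPKM in the controls and at 25.3, 28.2 and 30.8 RPKM after siTet1/Tet2. The groups overlapped, and the difference did not pass the test (log2 fold change 0.14, SE 0.08, limma adjusted p = 0.19). With the libraries rescaled by the median ratio or by quantile normalization the log2 fold change of Tgfbi was 0.25 or 0.26 and passed the test (limma adjusted p = 0.0227 and 0.021). These scalings moved the median over all genes tested from -0.09 to 0.0 and 0.06.

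Postn and Tgfbi were separated in every library. The ratio of Postn to Tgfbi was 1.32, 1.30 and 1.70 in the controls and 0.0854, 0.0985 and 0.190 after siTet1/Tet2. Their log2 fold changes differed by -3.24 (SE 0.29, two-sided exact permutation test, p = 0.1). Postn was also 0.742, 0.682 and 0.701 times as abundant as Tnc, a matrix partner it is known to bind, in the controls and 0.111, 0.127 and 0.186 times after siTet1/Tet2. That difference of log2 fold changes was -2.02 (SE 0.14, exact permutation p = 0.1). For Fn1 and Sparc the ratios were 0.752, 0.813 and 1.08 in the controls and 0.742, 0.682 and 0.751 after siTet1/Tet2, a difference of -0.26 (SE 0.16, exact permutation p = 0.1) that was smaller than the SD of 0.27 among the log2 ratios of the controls.

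The order of levels changed little between the groups. By mean RPKM the controls ranked Thbs1, Sparc, Fn1, Ctgf, Cyr61, Tnc, Thbs2, Postn, Tgfbi and Thbs3. The libraries of the neighbours Thbs1 and Sparc, Sparc and Fn1, Tnc and Thbs2, and Thbs2 and Postn overlapped. Within single libraries Tnc was above Thbs2 and Thbs2 above Postn in 3 of 3 controls, whereas Thbs1 was above Sparc in 1 of 3 and Sparc above Fn1 in 2 of 3, so the order of the latter was not beyond the spread. After siTet1/Tet2 the order was Thbs1, Sparc, Ctgf, Fn1, Cyr61, Tgfbi, Tnc, Thbs2, Postn and Thbs3. Neighbours there overlapped except Fn1 and Cyr61, Tnc and Thbs2, and Postn and Thbs3, but only the order of Cyr61 and Tgfbi and that of Tgfbi and Tnc differed between single libraries. Tgfbi, the ninth in the controls, came to lie among Cyr61 and Tnc. The summed RPKM of the 10 genes ranged from 2105 to 2627 in the controls and from 445 to 780 after siTet1/Tet2.

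The siTet1/Tet2 libraries were not alike. siTet1/Tet2 1 was the lowest of its group in 10 of 10 genes and siTet1/Tet2 3 the highest in 9 of 10, the exception being Thbs3, which was highest in siTet1/Tet2 2. Over all genes tested, siTet1/Tet2 1 was the lowest in 40.9% and siTet1/Tet2 3 the highest in 49.2%. On the scale of log2 RPKM over the control mean, Postn was at -4.08, -3.72 and -2.64 in the siTet1/Tet2 libraries, Fn1 at -2.93, -2.46 and -1.90, and Tnc at -1.41, -1.24 and -0.71. Among the controls, control 3 was the highest in 9 of 10 genes, all but Tgfbi, against 44.0% of all genes tested.

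Markers of cell types moved with these genes. BMMSC cultures carried both stromal and macrophage transcripts, and the stromal markers fell while several macrophage markers rose. Of 17 stromal markers 14 were tested, with a median log2 fold change of -1.93. After siTet1/Tet2 11 were lower and 1 higher (Vcam1), against 29.8% and 14.7% of all genes tested. Thy1, Lum and Lepr, further markers of marrow stromal cells, had means under 0.1 RPKM in both groups and were not tested. The summed RPKM of the stromal markers was 1237, 1154 and 1663 in the controls and 204, 259 and 350 after siTet1/Tet2. As for Fn1, this sum was lowest in siTet1/Tet2 1 and highest within its group in siTet1/Tet2 3 and in control 3. The largest contributors to the sum in the controls were the collagen genes Col1a1 (416, 394 and 655 RPKM) and Col1a2 (390, 373 and 548 RPKM). After siTet1/Tet2 they stood at 48.4, 64.2 and 104 RPKM and at 50.3, 69.9 and 109 RPKM. Collagen genes, themselves matrix genes, thus weigh heavily in the fall and the library order of this sum, which was not taken without them. Of these 14 markers 12 had siTet1/Tet2 1 as the lowest and siTet1/Tet2 3 as the highest of the group, against 27.0% of all genes tested.

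Of 15 macrophage markers, all tested, 8 were higher and 3 lower, against 14.7% and 29.8% of all genes tested, with a median log2 fold change of 0.20. Their summed RPKM ran from 7674 to 9841 in the controls and from 15579 to 18785 after siTet1/Tet2. Lyz2, the lysozyme of macrophages and granulocytes, was the largest contributor to that sum in every library, with 5013, 4757 and 3547 RPKM in the controls and 12728, 11393 and 9842 RPKM after siTet1/Tet2. The 3 lower markers were Fcgr1, Aif1 and Fcer1g. Fcgr1 fell from 109 to 27.8 RPKM on average (log2 fold change -1.93, SE 0.09, limma adjusted p = 3.09e-06). Aif1 and Fcer1g had log2 fold changes of -0.50 (SE 0.11) and -0.27 (SE 0.09). Ptprc, which encodes the leukocyte antigen CD45, was between 47.2 and 59.3 RPKM in all 6 libraries (limma adjusted p = 0.949), and none of the 15 was at 0. Of 5 endothelial markers 4 were tested, 2 lower and 1 higher, against the same shares of all genes, 29.8% and 14.7%. The summed RPKM of the endothelial markers was at most 2.88 in any library. The part of these cell types in the change of the matrix genes was not tested. In bulk RNA, fewer cells of a type and less RNA per cell cannot be told apart.

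**Figure D2:**
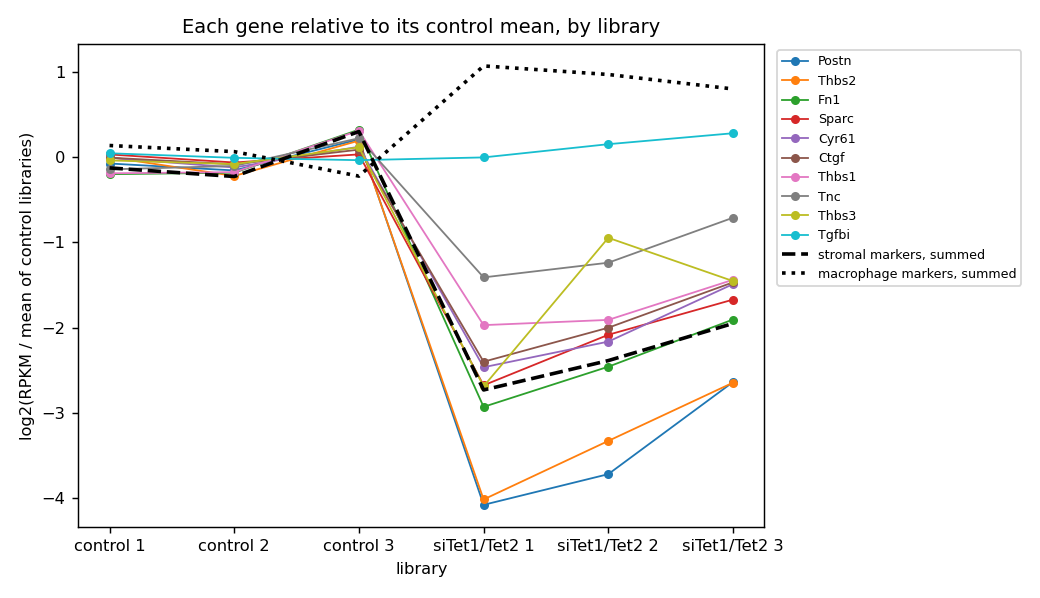
log2 of RPKM over the mean of the control libraries (y axis) for each of the 10 genes in each library (x axis; lines join points of a gene for reading only), with the summed stromal markers (dashed) and summed macrophage markers (dotted). Postn and Thbs2 lie below the stromal sum in all siTet1/Tet2 libraries, and Fn1 lies near it. The other genes lie above it in all of these libraries, Sparc and Thbs3 only slightly so in siTet1/Tet2 1. In the same libraries the macrophage sum lies above 0. Col1a1 and Col1a2 are the largest contributors to the stromal sum in the controls, so positions relative to it need not hold for other stromal markers.

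To set the matrix genes against the stromal markers, each library was also scaled so that the median log2 RPKM of the 17 stromal markers was equal in all 6 libraries. The controls were multiplied by 0.531, 0.493 and 0.451 and the siTet1/Tet2 libraries by 2.44, 2.12 and 1.64, which moved the median over all genes tested to a log2 fold change of 1.64. The error of these factors is shared by all genes and not in the p-values, which are therefore too small. On this scale 2 of the 10 genes were lower and 2 higher at an adjusted p under 0.05, against 1.97% and 90.4% of the genes tested.

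The stromal markers themselves did not fall by a common factor, with log2 fold changes in RPKM from -3.20 for Ly6a to 1.67 for Vcam1. The scale stands only for the median level of the list in each library. That level was set by Prrx1 in controls 1 and 2, by Vcam1 in control 3 and by Cxcl12 in the siTet1/Tet2 libraries. It is not the change of any single marker. Several fell as much as Postn and Thbs2, with mean RPKM 10.5-fold lower for Pdgfra, 9.75-fold for Cxcl12, 9.27-fold for Ly6a and 8.85-fold for Col3a1. On this scale Postn and Thbs2 were still lower, with log2 fold changes of -1.29 (SE 0.20) and -1.17 (SE 0.20). The scaled RPKM of Postn was 18.4, 16.1 and 19.0 in the controls and 5.29, 5.89 and 9.59 after siTet1/Tet2. Fn1, Sparc, Ctgf, Cyr61 and Thbs3 had overlapping groups and log2 fold changes of -0.35 (SE 0.26), -0.09 (SE 0.26), 0.10 (SE 0.25), 0.02 (SE 0.22) and 0.13 (SE 0.10), with limma adjusted p from 0.179 to 0.932. For Thbs1 the groups did not overlap, with a log2 fold change of 0.30 (SE 0.27, limma adjusted p = 0.277). Tnc was higher by 0.92 (SE 0.21) and Tgfbi by 2.11 (SE 0.21) on the log2 scale, with scaled RPKM of Tgfbi of 13.9, 12.4 and 11.2 in the controls and 61.9, 59.8 and 50.4 after siTet1/Tet2. As the scaling raised all genes, the change of sign of Tnc is no result about Tnc itself, and its 0.92 lay below the median of 1.64 over all genes tested.

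**Figure D3:**
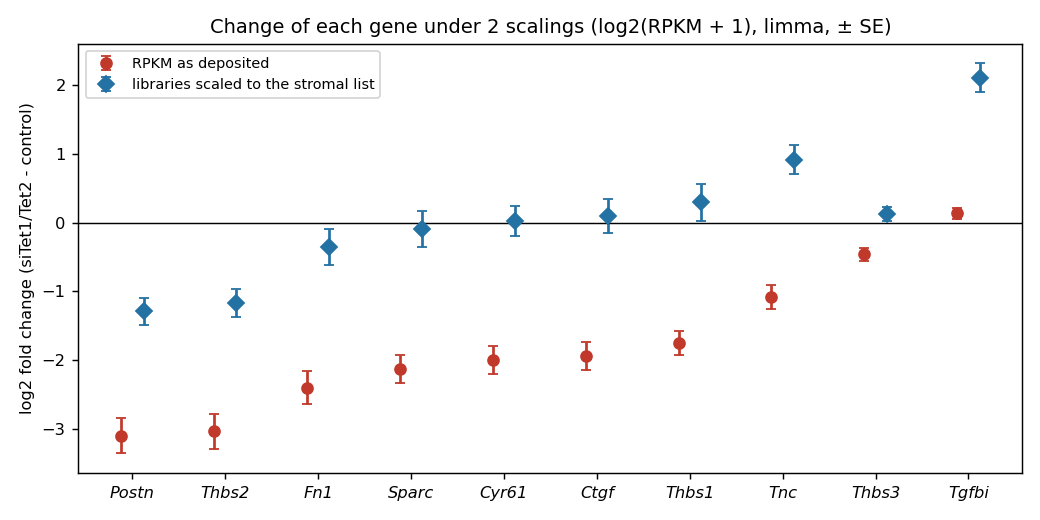
log2 fold change (y axis, siTet1/Tet2 minus control on log2(RPKM + 1), bars are SE from limma, n = 3 libraries per group) of each gene, for RPKM as deposited (red circles) and with libraries scaled to the stromal list (blue diamonds). Postn and Thbs2 stay below 0 under both, at -3.10 and -3.04 and at -1.29 and -1.17, while Fn1, Sparc, Cyr61 and Ctgf move to between -0.35 and 0.10.

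Genes related to the 10 genes by family, receptor or regulation were described by counts. The list of other matricellular genes held 19 genes, namely Spp1 and genes of the CCN, thrombospondin, tenascin, SPARC and fasciclin families. Its fasciclin genes were the scavenger receptors Stab1 and Stab2. Of the 19 genes, 11 were tested. There were 7 lower and 2 higher genes (Stab1 and Stab2), against 29.8% and 14.7% of all genes tested, with a median log2 fold change of -1.02. Wisp2, a CCN gene of osteoblasts and fibroblasts, fell from 68.6, 60.5 and 63.6 RPKM to 4.83, 7.56 and 10.5 RPKM (log2 fold change -2.97, SE 0.21, limma adjusted p = 2.2e-05). Fstl1, a secreted SPARC-family glycoprotein, fell from 98.5, 92.6 and 112 RPKM to 13.1, 18.5 and 26.9 RPKM (log2 fold change -2.37, SE 0.21). Both lay in the range of the 10 genes and had the same order of siTet1/Tet2 libraries.

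The 2 genes of this list that rose were the fasciclin-domain scavenger receptors of macrophages and sinusoidal endothelium. Stab1 was at 173, 182 and 212 RPKM in the controls and at 290, 304 and 330 RPKM after siTet1/Tet2 (log2 fold change 0.70, SE 0.09, limma adjusted p = 0.000444), and Stab2 rose from 1.02 to 2.17 RPKM on average (0.65, SE 0.08). Spp1, which encodes osteopontin and was the most abundant of the matricellular genes listed here, had means of 2346 and 1967 RPKM and did not pass the test (log2 fold change -0.26, SE 0.11, limma adjusted p = 0.0857). Its groups did not overlap, with 2328 to 2364 RPKM in the controls and 1866 to 2103 RPKM after siTet1/Tet2. Such a separation toward lower values was present in 35.9% of all genes tested. A further 7 of the 19 genes, among them Thbs4, Tnr and Tnxb, were at or under 0.1 RPKM in every library.

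Receptors and binding partners of these proteins showed both directions. Of 18 listed, 16 were tested. Of these, 8 were lower and 4 higher, against 29.8% and 14.7% of all genes tested, and the median log2 fold change was -0.23. Itga5, the alpha chain of the main fibronectin receptor, fell from 129 to 72.1 RPKM on average (log2 fold change -0.83, SE 0.07, limma adjusted p = 5.64e-05), and its partner Itgb1 from 383 to 273 RPKM (-0.49, SE 0.09). Itgav, the alpha chain of the vitronectin receptors, had overlapping groups with means of 82.0 and 80.8 RPKM (limma adjusted p = 0.943). The heparan sulfate proteoglycan Sdc2 fell most, from 37.1, 36.0 and 40.1 RPKM to 4.20, 6.25 and 8.46 RPKM (-2.45, SE 0.19), followed by Sdc1 with -1.08 (SE 0.09). Itga4, the alpha chain of a fibronectin and VCAM-1 receptor of leukocytes, rose from 9.50 to 17.0 RPKM (0.78, SE 0.10), and Cd36, a thrombospondin receptor abundant in macrophages, from 1101 to 1856 RPKM (0.75, SE 0.12).

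Of 20 YAP and TEAD target genes other than Cyr61 and Ctgf, all were tested. There were 14 lower and 2 higher, against 29.8% and 14.7% of all genes tested, and the median log2 fold change was -0.77. Ccdc80, a secreted matrix protein, fell from 44.7, 42.4 and 54.4 RPKM to 5.33, 6.99 and 10.5 RPKM (log2 fold change -2.52, SE 0.20, limma adjusted p = 3.9e-05). Amotl2, an angiomotin that restrains YAP, fell from 30.3, 28.4 and 34.4 RPKM to 3.37, 5.05 and 7.95 RPKM (-2.37, SE 0.23). The kinase gene Nuak2 rose from 6.82 to 10.3 RPKM (0.52, SE 0.10), and Myof rose by 0.19 (SE 0.07, limma adjusted p = 0.0436), a call that was lost when any of 5 of the 6 libraries was left out.

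Of 15 TGF-beta early response genes, all tested, 6 were lower and 5 higher, against 29.8% and 14.7% of all genes tested. Their median log2 fold change of -0.08 was close to the -0.09 of all genes tested. Tgfb1i1, an adaptor of focal adhesions, fell from 35.9, 31.6 and 36.2 RPKM to 5.56, 7.83 and 8.99 RPKM (log2 fold change -2.09, SE 0.15, limma adjusted p = 2.14e-05), and Pmepa1, an inhibitor of the pathway, from 18.3 to 5.68 RPKM (-1.56, SE 0.16). Bambi, a pseudoreceptor that inhibits the pathway, rose from 1.90 to 4.21 RPKM (0.85, SE 0.12), and Itgb5 rose from 136 to 227 RPKM (0.74, SE 0.07). Without siTet1/Tet2 1 or siTet1/Tet2 3 the number of higher genes was 3 in place of 5.

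**Figure D4:**
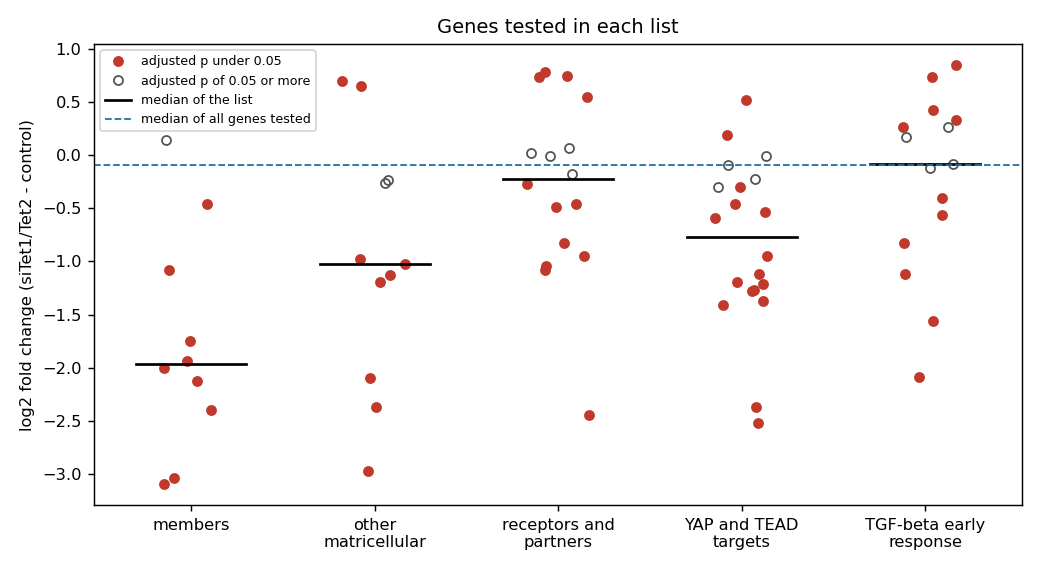
log2 fold change (y axis, siTet1/Tet2 minus control) of every tested gene of each list (x axis; points are spread sideways for legibility), filled where the adjusted p was under 0.05. Black bars are list medians, from -1.97 for the 10 matrix genes to -0.08 for TGF-beta early response genes, and the dashed line is the median of all genes tested, -0.09.

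The genes whose log2(RPKM + 1) followed Fn1 and Postn most closely over the 6 libraries were sought among the 6239 genes that averaged 10 RPKM or more. They were Col1a2, Nid1 and Nedd4 for Fn1, with Pearson r of 0.9998, 0.9996 and 0.9992, and Fermt2, Cpe and Fam114a1 for Postn, with r of 0.9997, 0.9994 and 0.9994. Such values describe a shared pattern in 6 libraries that fall into 2 groups, and 916 genes reached an r of 0.95 with Fn1 and 959 with Postn. Col1a2, which encodes a chain of type I collagen, fell from 437 to 76.4 RPKM on average, close in level and in fold to Fn1.

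Several of the genes overlap others on the opposite strand in GENCODE M21. Fn1 shares 292 exon bases with Apol7d, Thbs1 208 with Gm29233, Ctgf 665 with Gm15270 and Tnc 176 with 8030451A03Rik, so reads from either strand there cannot be told apart. For Fn1, Thbs1 and Tnc these stretches are short beside their longest transcripts of 8315, 5848 and 7106 bases, and for Ctgf the longest is 2490 bases.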

How the data were processed

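RNA-seq of 3 control and 3 Tet1/Tet2 siRNA-treated BMMSC libraries was examined. The authors prepared libraries of total RNA with a NEBNext Ultra kit, sequenced them as paired ends on an Illumina HiSeq, trimmed adaptors, mapped reads to GRCm38 and estimated abundance with DNASTAR Lasergene. They deposited RPKM on a linear scale, a unit that the methods call FPKM. Which annotation release was used, whether strand was used and how reads matching several places were counted is not given in the sources used here. The table also holds a p-value per row from the authors' own comparison, which was not used.

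The table has 36915 rows. Of the rows of a repeated symbol (37 symbols) only the one with the highest mean entered. The groups were compared on log2(RPKM + 1), a pseudocount of 1, with limma 3.58.1 in R 4.3.3 (lmFit, eBayes with trend, two-sided) in the 13266 genes averaging 0.1 RPKM or more, with Benjamini-Hochberg adjustment over these genes. The script was run on simulated data with independent noise in each gene. Those data lack the library order that many genes share here, so they do not show how the test behaves under it. Depth was estimated in Python 3.11.15 from low values, by finding the read number that brings genes with 1 transcript closest to whole reads. Between 49.0% and 55.3% of these values lay within 0.1 of a whole number, so no count test was run, and reads per gene assume the longest transcript.

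Differences between the fold changes of pairs of genes were to be tested with limma on log ratios to a reference gene. The noise of the reference enters every gene of such a fit and makes its p-values too small, so an exact permutation test over the 6 libraries took its place.

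The genes, the lists and the tests were chosen with earlier results of these data known. The genes named were all 10, and the 2 largest decreases and 2 largest increases past an adjusted p of 0.05 in each list of related genes. Further named were the 3 genes most correlated with Fn1 and with Postn, Tet1, Tet2 and some of the cell type markers. Spp1, Itga5, Itgb1 and Itgav were singled out for their known roles after their values were seen, as were the untested genes named. Positions are from GENCODE M21. Promoter windows are from RefSeq.

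The labels share replicate numbers between the groups. Deviations from the group means correlated between same-numbered libraries at 0.149 (1), 0.117 (2) and 0.462 (3). Each exceeds 0.1, and a further fit therefore took the numbers as pairs, with a replicate block. Control 1 and siTet1/Tet2 2 reached 0.332, and control 2 and siTet1/Tet2 1 reached 0.205. Both are above the same-numbered values of 0.149 and 0.117, so these correlations do not show that the numbers mark pairs. No source says what a number stands for. The other alternatives were pseudocounts of 0.1 and 0.01, other filters, 4 other scalings, eBayes without trend, the sum of repeated rows and each library left out.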

Additional observations from a re-analysis of the deposited data

How the results depend on the processing

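Postn and Thbs2 kept their direction and their call under all 17 alternatives, with adjusted p up to 0.0112 and 0.0107, and Fn1, Sparc, Thbs1, Ctgf and Cyr61 under 16, the exception being the scaling to the stromal list. The fit with the replicate block changed no call of the 10 genes (Fn1 -2.40 with SE 0.0971 and adjusted p = 1.91e-06, Tgfbi 0.14 with adjusted p = 0.175), and moved no count of calls by over 1.5 times. Requiring a mean of 1 RPKM removed Thbs3. Without a filter, Tnc (-1.08, adjusted p = 0.0541) and Thbs3 (-0.46, adjusted p = 0.0554) lost their call. There 36870 genes were tested, many of them at the floor, and 1 YAP target was higher, 3 TGF-beta early response genes were lower and 3 higher, and of all genes 2514 were lower and 1230 higher. By median ratio scaling and by quantile normalization Tgfbi passed the test (0.25 and 0.26), so that 1 of the 10 genes was higher. Quantile normalization turned the balance of all genes from 3952 lower and 1953 higher to 2627 lower and 3607 higher, and the cause was not tested. The number of higher YAP targets was 1 under quantile normalization, under TPM rescaling and with eBayes without trend.

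Under the scaling to the stromal list, whose construction moves the median of all genes to 1.64, the log2 fold changes were -0.35 for Fn1, -0.09 for Sparc, 0.30 for Thbs1, 0.10 for Ctgf, 0.02 for Cyr61, 0.92 for Tnc, 0.13 for Thbs3 and 2.11 for Tgfbi (adjusted p = 5.75e-22). The median of the 10 genes was 0.06, with 2 lower and 2 higher, or 2 lower and 1 higher by the thresholds of the paper. Lower and higher genes numbered 2 and 5 among other matricellular genes, 1 and 13 among receptors, 4 and 11 among YAP targets, 0 and 13 among TGF-beta early response genes and 261 and 11986 among all genes.

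Differences between fold changes of pairs moved with the pseudocount. With 0.1 they were -0.46 for Thbs1 and Thbs3, -1.99 for Thbs2 and Thbs3 and -2.32 for Postn and Tnc. With 0.01 they were 1.56 for Thbs1 and Thbs2, -0.11 for Thbs1 and Thbs3, -1.68 for Thbs2 and Thbs3, -3.61 for Postn and Tgfbi and -2.35 for Postn and Tnc. They were -1.01 for Thbs1 and Thbs3 and -2.20 for Postn and Tnc under TPM rescaling, and 0.17, -1.30 and -2.20 for Thbs1 and Thbs3, Thbs2 and Thbs3, and Postn and Tnc under the stromal scaling.

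Leaving out each library in turn changed no call of the 10 genes at an adjusted p under 0.05, while the number past the thresholds of the paper ranged from 7 to 8. That number was 9 with the ratio of the group means and with pseudocounts of 0.1 and 0.01, where Thbs3 was at -1.30 and -1.64. By median ratio scaling and by quantile normalization it was 7, with Tnc at -0.96 and -0.97. With each library left out in turn, the number of genes lower at an adjusted p under 0.05 stayed at 9. The median of the 10 genes ranged from -2.22 to -1.76, the former without siTet1/Tet2 3. Higher YAP targets numbered from 1 to 2 and higher TGF-beta early response genes from 3 to 7. Depth limits Tet1 and Thbs3 most, the latter resting on an estimated 17 reads in siTet1/Tet2 1.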
